A study of Mus musculus with 9 samples.

Results

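Cytosines outside CpG dinucleotides were analysed in bisulfite-amplified promoter regions of heart and cell cycle genes. They are written CHG or CHH, where H stands for A, C or T. A cytosine was included when its type was CHG or CHH and at least 30 reads covered it in each of 9 libraries. This held for 2195 of the 2708 non-CpG cytosines and of the 3063 cytosines of any type that are listed. They comprise 623 of 791 CHG and 1572 of 1917 CHH sites, lie in 26 of the 30 regions, number 48 to 115 in a region, and are listed on 1 strand. Another 310 non-CpG sites lie in 4 regions without a read, and 203 were left out in regions with reads. Of the 203, 27 had no read and 176 had too few in at least 1 library, and 156 of the 176 lay within 25 bases of an end of their region. The 23 sites whose lowest coverage was 20 to 29 reads had a median level of 1.62% and a highest level of 65.7%, and the 29 sites with 30 to 39 had 0.243% and 52.2%.

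The libraries came from primary cardiomyocytes taken from CD-1 mouse embryos on embryonic day 13.5, for which the ventricles of each litter were pooled. After 48 h in culture the cells received 0.012 pmol of siRNA with a lipofectamine reagent, and they were collected after a further 72 h and enriched magnetically through the surface protein VCAM1. The 3 groups, of 3 libraries each, had received a negative control siRNA, a pool of siRNAs against DNMT3a, or a pool against DNMT3b. The study asked which promoter regions differ in methylation after either knockdown, the degree of which was not analysed here. No RNA was measured in these libraries, so the cell type was not checked against markers. The labels do not say that libraries of a group came from separate cultures, so p-values measure the spread between these libraries, which may be technical.

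DNMT3a and DNMT3b are the de novo DNA methyltransferases, which act mainly on CpG and also methylate cytosines in other contexts, CA above all, in cells such as neurons, oocytes and pluripotent cells. Bisulfite turns unmethylated cytosine into uracil, which is read as T after amplification, and leaves 5-methylcytosine as C. A read with C outside CpG can therefore have several sources, among them a methylated base, an unmethylated base that was not converted and a misread base. These cannot be told apart in the deposited values. Primer positions are not given, so whether the outermost listed cytosines lie under a primer is not known and was not tested. The level of a site is the percent of its reads that carry C.

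Most non-CpG cytosines carried almost no C, and all 12 sites at 10% or more lay at the ends of the listed regions. Among lower levels the ends were less prominent, with 17 of the 18 sites at 5% or more and 23 of the 35 at 2% or more. The 10 highest are shown first, because they carry much of every mean below. The runs were put together from the trinucleotides and offsets in the deposited files and read 5′ to 3′ on the listed strand. Capitals mark cytosines among the 10 with the highest mean level, and n marks a base that the files do not give.

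Tnnc1_2, offsets 2 to 31, near its first listed cytosine: ctgnnCtCaCagcagnnnnnnncagnnncc
Tnnc1_2, offsets 379 to 408, at its last listed cytosines: nnncccagnnnncatcctgcaannnCtcaa
Mef2d_1, offsets 395 to 424: ncacacagnnnnnnnnnnnnCtgnnnccta
Myh7_2, offsets 5 to 34: cCagnCtancactgnnnncaanncttctan
Tnni3_1, offsets 400 to 429: nnnnnncttcgtnnCcttnnnnnnnnnncc
Tnnt2_1, offsets 416 to 445: nnctcgtnnnnnnnCtctgnnnnnnncttc

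The next runs hold cytosines that lay inside a region and still stood high. In Tnnt2_2 the capitals mark the interior CAT at offset 321 and, 5 bases on, the CCT that is among the 10 highest. In Cdkn1C_1 they mark 3 neighbouring interior cytosines.

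Tnnt2_2, offsets 309 to 338: nnnnnnnnnnnnCatnnCcttcagnnnctg
Cdkn1C_1, offsets 317 to 346: nnnnnnnncgcgCagCCaannnncgtnncg

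The cytosine pattern of 11 regions, 10 of them with reads, matched a RefSeq promoter window of GRCm38.p6, which runs from 250 bases before a gene's start to 50 after it. All 11 matched on the sense strand. They include Myh7_2 (matched over chr14:54994618-54994876), Tnni3_1 (chr7:4522479-4522698), Camta2_1 (chr11:70688056-70688297) and Cdkn1A_1 (chr17:29090729-29090898). Myh6_1, upstream of the alpha cardiac myosin heavy chain gene, is printed to show how closely the cytosines studied are spaced in a promoter. Its 60 cytosines in capitals are those with 30 or more reads in every library, and the stretch ends at the last base before the start.

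Myh6_1, chr14:54966608-54966857, minus strand: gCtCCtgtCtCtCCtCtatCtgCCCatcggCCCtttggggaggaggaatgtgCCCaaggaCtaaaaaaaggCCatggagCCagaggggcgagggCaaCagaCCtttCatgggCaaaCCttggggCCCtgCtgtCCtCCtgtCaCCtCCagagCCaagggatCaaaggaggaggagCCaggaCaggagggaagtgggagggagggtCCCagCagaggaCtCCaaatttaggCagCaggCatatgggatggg

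The next stretches were amplified in both regions of their gene, so that a cytosine near the end of one product lay further inside the other. Capitals mark the non-CpG cytosines listed in both regions.

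NPPA_1 and NPPA_2, chr4:148000521-148000566, plus strand, upstream of the atrial natriuretic peptide gene: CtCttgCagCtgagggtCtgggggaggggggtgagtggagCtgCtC
Myh7b_1 and Myh7b_2, chr2:155611091-155611138, plus strand, upstream of a myosin heavy chain gene: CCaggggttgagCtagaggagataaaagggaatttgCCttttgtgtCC

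Non-CpG levels were low throughout. Of the 2195 sites, 91.6% had a mean level under 0.5% over the 9 libraries and 96.0% were under 1%, and 22 had no read with C in any library. Only 87 reached 1%, 35 reached 2% and 18 reached 5%. The 10 highest held 40.7% of the summed site levels, so a mean over sites is largely a statement about few positions. For comparison, the 310 CpG sites that met the same coverage minimum averaged 23.5% ± 0.39 with negative siRNA, 22.6% ± 1.3 with siRNA against DNMT3a and 21.9% ± 0.29 with siRNA against DNMT3b (SD over 3 libraries). Reads at the non-CpG sites summed to 23648635 to 28586935 per library, and the median site was covered by 8253 reads. These PCR reads carry no molecular identifiers, so intervals from counts cover counting error only.

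All 10 of the highest sites lay within 25 bases of the first or last listed cytosine of their region. The CTG at offset 415 of Mef2d_1, 7 bases from the last listed cytosine, was read as C in 86.1% ± 3.3 of reads (SD, n = 9). Its libraries stood at 82.6%, 82.0% and 88.4% in negative siRNA, 81.5%, 89.2% and 87.8% in DNMT3a siRNA and 86.1%, 87.3% and 90.1% in DNMT3b siRNA, on 81 to 142 reads each. The groups overlapped. Mef2d encodes a MADS-box transcription factor of muscle.

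Tnnc1_2, a region of the gene for cardiac troponin C, held 4 of the 10. The CTC at offset 7 had 59.2%, 74.6% and 71.1% in negative siRNA, 76.6%, 77.2% and 69.1% in DNMT3a siRNA and 69.1%, 64.4% and 77.9% in DNMT3b siRNA. The CAC at offset 9 averaged 60.2% and the CAG at offset 11 averaged 49.2%, so 3 cytosines spaced 2 bases apart were all read as C in about as many reads as not, or more. At the other end, the CTC at offset 404 ranged from 23.7% to 68.4% on only 31 to 50 reads. The 13 sites at the ends of Tnnc1_2 averaged 18.5%, against 0.170% over its 66 interior sites.

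The remaining high sites were the CAG at offset 6 of Myh7_2 with 29.99%, the CCT at offset 414 of Tnni3_1 with 25.8%, the CTA at offset 10 of Myh7_2 with 24.7%, the CTC at offset 430 of Tnnt2_1 with 23.2% and the CCT at offset 326 of Tnnt2_2 with 20.4%. Myh7, Tnni3 and Tnnt2 encode the beta myosin heavy chain, troponin I and troponin T of the heart. The site in Tnnt2_2 was the deepest of the 10, with 890 to 1307 reads, and yet varied from 8.03% in the third negative siRNA library to 30.7% in the first. Next below the 10 was a site at 18.4%. The 10 sites covered 6 trinucleotides and 6 regions. None of them passed edgeR's quasi-likelihood test between siRNA groups, with adjusted p from 0.726 to 1.

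Over all members, the level varied with the distance to the nearer end. The 114 sites within 25 bases of an end, 5.19% of members, averaged 5.05% ± 0.22, and the 2081 interior sites averaged 0.246% ± 0.028 (SD, n = 9). The end sites stood at 5.10%, 4.73% and 5.16% in negative siRNA, 5.17%, 5.37% and 4.79% in DNMT3a siRNA and 4.82%, 5.23% and 5.10% in DNMT3b siRNA. They were higher than interior sites in 9 of 9 libraries, by 4.81 ± 0.20 percentage points (exact sign-flip permutation test over libraries, two-sided, p = 0.0039, the smallest that 9 libraries can give; Benjamini-Hochberg adjusted p = 0.0052 over 4 contrasts). This test covers the spread between libraries, which share the sites.

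The gradient was steepest over the outermost bases. The level averaged 20.8% over 20 sites at 0 to 9 bases from an end, 2.54% over 43 sites at 10 to 19 bases and 0.880% over 95 sites at 20 to 29 bases. From there it was 0.394% at 25 to 49 bases, 0.232% at 50 to 74, 0.264% at 75 to 99 and 0.215% at 100 or more. The mean showed it at both ends, with 22.1% over 12 sites within 9 bases of the first listed cytosine and 18.9% over 8 sites within 9 bases of the last. The medians of these bins were 12.9% and 1.90%, and the second bin held sites of 86.1% in Mef2d_1 and 52.2% in Tnnc1_2. By region, end sites averaged less than interior ones in Camta2_1 (0.118% against 0.251%) and NPPA_2 (0.224% against 0.263%), and more in the other regions with end sites. Over all members the medians were closer, 0.487% for end sites and 0.175% for interior ones, since many end sites were low: 36.0% of end sites and 2.21% of interior sites reached 1%.

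**Figure D1:**
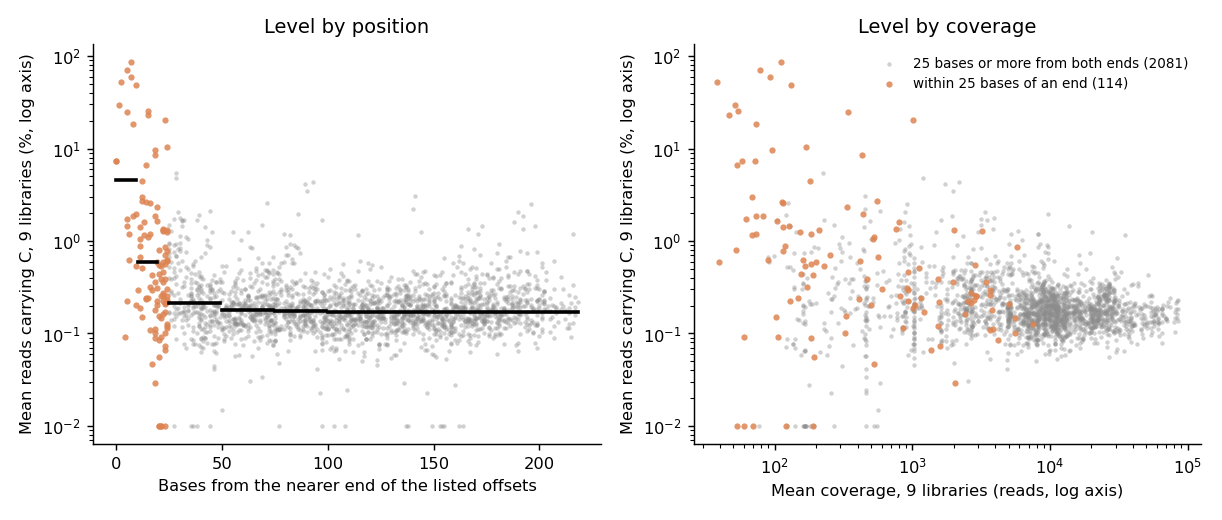
Level of each non-CpG cytosine, as mean percent of reads carrying C over 9 libraries, against its distance from the nearer end of the region (left) and against its coverage (right), with levels and coverage on log axes and sites without a C drawn at 0.01. Black bars are medians of site levels in a distance bin. The sites above 5% crowd at distances under 25 bases and at low coverage, while interior sites lie mostly between 0.05% and 1%.

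Coverage moved with position. Median coverage was 330 reads at end sites and 8882 at interior sites. Among sites whose lowest coverage was 30 to 99 reads, the 43 end sites averaged 11.3% and the 61 interior sites 0.484%. With 100 to 999 reads the averages were 1.96% over 42 end sites and 0.310% over 331 interior sites. With 1000 to 9999 reads they were 0.309% over 29 and 0.250% over 1046. The bands are wide, and coverage was not matched within them. In each of these 3 bands the mean was higher at end sites, and no end site reached 10000 reads. The part of coverage in the end levels was not tested. The difference over all sites was 8.25 percentage points with a coverage minimum of 10 and 1.05 with a minimum of 100. It was 0.751 when reads were pooled, 0.216 as a difference of medians and 0.289 without the sites of 2% or more. Each of these passed the same test.

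Some cytosines were amplified in both regions of their gene, which gives their level near an end and inside on the same genomic base. For NPPA, Myh7b, Mef2d and Cdkn1B the cytosine patterns of regions 1 and 2 coincided at a single shift over 7 to 54 cytosines. They share 82 non-CpG sites, of which 26 had reads in both regions and 17 lay within 25 bases of an end in only 1 of them. With the 9 libraries pooled, 12 of these 17 were higher in the region where they lay near the end, and for 10 the exact 95% binomial interval of the end value lay above the interior value. The other 5 had no read with C at the end, on 4 to 36 reads. Of the 12, 3 were end sites of Mef2d_1, which was higher than Mef2d_2 at 11 of the 12 cytosines that met the coverage minimum in both, so in those pairs end and region cannot be told apart. Without them 9 of 14 were higher near the end, 8 of them with the interval above the interior value.

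In the NPPA stretch printed above, the capital C at offset 43 of NPPA_1 is offset 370 of NPPA_2. In NPPA_2, 5 bases from the end, 55.6% of 63 reads carried C (exact 95% interval 42.5% to 68.1%), against 0.153% of 54768 reads in NPPA_1. The cytosine 3 bases on had 29.1% of 55 reads in NPPA_2 and 0.287% in NPPA_1. At the opposite side of the stretch, offset 9 of NPPA_1 had 60% of 15 reads (32.3% to 83.7%) near the end of NPPA_1, against 0.251% in NPPA_2. Not all cytosines of the stretch went that way: offset 12 of NPPA_1 had no C in 35 reads near the end against 0.407% in NPPA_2, and offset 375 of NPPA_2 had none in 36 against 0.313% in NPPA_1.

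In the Myh7b stretch, the cytosine at offset 428 of Myh7b_2 carried C in 59.1% of 88 reads (48.1% to 69.5%), against 0.160% of 38741 reads in Myh7b_1. Its 5′ neighbour at offset 427 had 4.26% of 141 reads and 0.228% in the other region. In Mef2d_2 the cytosine at offset 397 had 9.65% of 114 reads (4.92% to 16.6%), against 0.355% in Mef2d_1. The 3 pairs with the most reads near the end were all end sites of Mef2d_1, with 0.466% of 1716 reads against 0.146% at offset 28, 0.226% of 23025 reads against 0.0519% at offset 30 and 0.212% of 45735 reads against 0.198% at offset 34. Most of these end values rest on sites under the coverage minimum, and so on sites that are not among the 2195.

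**Figure D2:**
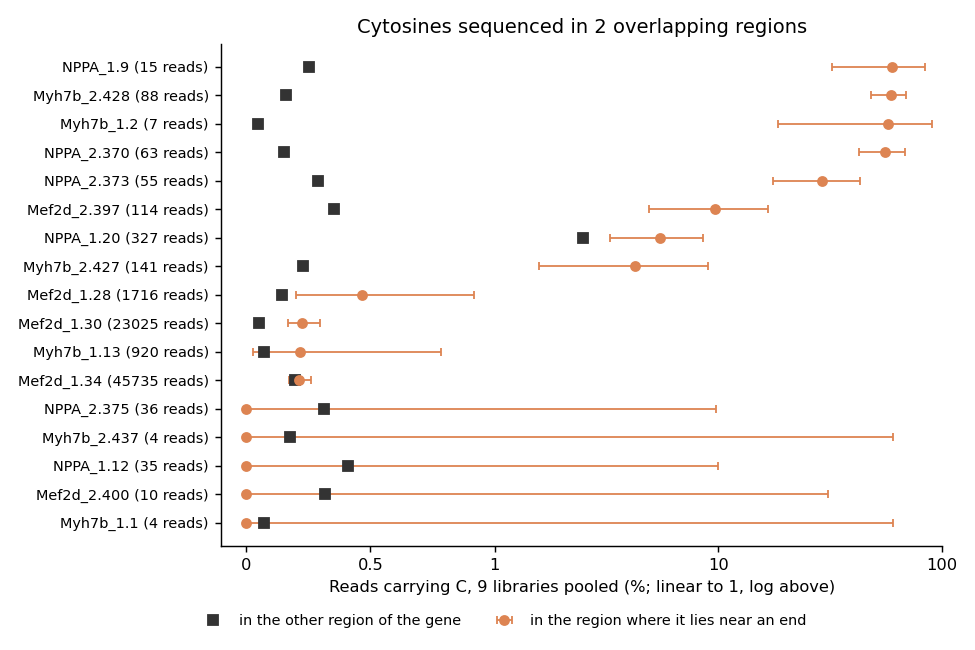
Percent of reads carrying C, pooled over 9 libraries, for 17 cytosines sequenced near an end of a region (orange, with exact 95% binomial intervals and the number of reads in the label) and further inside the other region of the gene (black squares); the axis is linear to 1% and logarithmic above. Labels give region and offset of the end site. The end value is above the interior value in 12 of 17, and 5 end values are 0.

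Sequence context was compared next. CHG sites averaged 0.593% ± 0.029 and CHH sites 0.457% ± 0.041 (SD, n = 9). CHG was higher in 9 of 9 libraries, by 0.136 ± 0.031 percentage points (exact sign-flip permutation test, two-sided, adjusted p = 0.00521). This order rested on the high end sites. The difference was 0.00874 (p = 0.0977 by the same exact permutation test) over interior sites, and it turned to -0.00869 with a coverage minimum of 100, -0.00385 with reads pooled, -0.00169 as a difference of medians and -0.0113 without sites of 2% or more.

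By the base after the cytosine, CT sites averaged 0.618%, CA sites 0.566% and CC sites 0.324%. CC was below CT in 9 of 9 libraries, by 0.294 ± 0.031 percentage points (exact sign-flip permutation test, two-sided, adjusted p = 0.00521). Over interior sites the difference was -0.0379, and between medians it was -0.0152, both in the same direction in 9 of 9 libraries. CA, the context in which DNMT3a and DNMT3b are best known to act outside CpG, was not the highest. Its mean was below that of CT in 8 of 9 libraries, by 0.0525 ± 0.038 percentage points (exact sign-flip permutation test, two-sided, adjusted p = 0.0117), and its median of 0.137% was the lowest of the 3, with 0.162% for CC and 0.177% for CT. The CA minus CT difference was -0.0183 over interior sites and -0.128 as a mean of within-region differences, and both passed. As for the ends, these tests cover the spread between libraries, which share the sites, and not the spread between sites. Over interior sites CA was nevertheless above CT in 2 of 9 libraries, both of negative siRNA. The negative siRNA libraries had differences of -0.0413, 0.0145 and 0.00683 there, and CA was below CT in every DNMT3a and DNMT3b siRNA library.

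The 12 trinucleotides fell in a narrow range once end sites were set aside. Interior means ran from 0.197% ± 0.032 for CCA, through 0.223% for CTA, 0.224% for CCC, 0.229% for CAG, 0.234% for CCT, 0.239% for CAT, 0.255% for CTT, 0.267% for CTG, 0.270% for CAA, 0.271% for CAC and 0.275% for CCG, to 0.288% ± 0.030 for CTC (SD, n = 9). SDs between libraries were 0.026 to 0.045 percentage points, as large as most steps in this order. Counted from the bottom within a library, CCA ranked from 1 to 3 in every library, CCC from 1 to 5 and CTC from 7 to 12, while CTA took ranks from 1 to 12. With end sites included, CTC averaged 0.917%, CAC 0.742%, CTG 0.630% and CAG 0.617%. Those are the contexts of Tnnc1_2 and Mef2d_1 sites printed above, while CCA stayed at 0.221% and CCC at 0.239%.

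Nearness to a CpG went with small differences. The 103 interior CCG sites, whose neighbour is a CpG, averaged 0.275%. Sites 2 to 5 bases from a CpG averaged 0.236%, those 6 to 20 bases away 0.247% and those 21 or more 0.248%. The 33 CCG sites beside a CpG methylated to 20% or more had a median of 0.170%, and the 70 beside a less methylated CpG had 0.199%. Across the 26 regions, Spearman's rho between the interior median of non-CpG sites and the mean CpG level was 0.275, a description over regions that share libraries.

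The siRNA groups were then compared over all 2195 sites. Mean non-CpG levels were 0.510%, 0.450% and 0.496% in negative siRNA (0.485% ± 0.032), 0.539%, 0.559% and 0.463% in DNMT3a siRNA (0.521% ± 0.051), and 0.469%, 0.492% and 0.483% in DNMT3b siRNA (0.482% ± 0.012, SD, n = 3 each). The groups overlapped, and 2 of 3 DNMT3a siRNA libraries were the highest of the 9. DNMT3a siRNA exceeded negative siRNA by 0.0355 percentage points (adjusted p = 0.6) and DNMT3b siRNA by 0.0392 (adjusted p = 0.6), and DNMT3b siRNA minus negative siRNA was -0.00366 (adjusted p = 0.9; all by two-sided exact permutation over libraries, where 3 against 3 cannot go below p = 0.10). Interior means were 0.238% ± 0.022 with negative siRNA, 0.269% ± 0.038 with siRNA against DNMT3a and 0.231% ± 0.0015 with siRNA against DNMT3b. Medians over sites were 0.158% ± 0.0066, 0.167% ± 0.016 and 0.159% ± 0.0017 in the same order. No lower non-CpG level was detected after either siRNA at this spread.

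**Figure D3:**
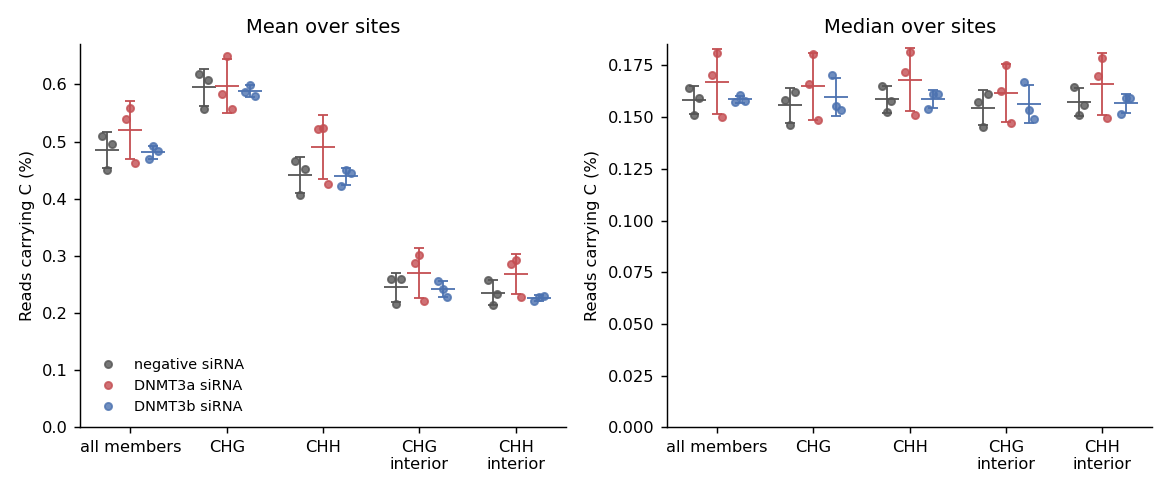
Non-CpG levels, as percent of reads carrying C, by library for negative, DNMT3a and DNMT3b siRNA, as mean over sites (left) and median over sites (right) for all members, CHG, CHH and their interior sites; points are libraries and bars the mean ± SD of 3. The groups overlap over all 2195 sites, with 2 DNMT3a siRNA libraries highest at 0.539% and 0.559%.

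By trinucleotide, the mean was higher in DNMT3a than in negative siRNA for 9 of 12, in DNMT3b than in negative siRNA for 6 and in DNMT3a than in DNMT3b siRNA for 11. The groups did not overlap in 5 of the 36 comparisons, which is 13.9% of them, and no comparison passed (exact permutation tests, smallest adjusted p = 0.72). CAT was such a context: its means were 0.249%, 0.237% and 0.227% in negative siRNA, 0.286%, 0.292% and 0.262% in DNMT3a siRNA and 0.191%, 0.241% and 0.205% in DNMT3b siRNA. All 3 DNMT3a siRNA libraries lay above the other 6. CTA had 0.584%, 0.491% and 0.541% in negative siRNA, 0.550%, 0.631% and 0.552% in DNMT3a siRNA and 0.450%, 0.450% and 0.484% in DNMT3b siRNA, and there DNMT3b siRNA was below both other groups without overlap. CAA differed without overlap between DNMT3a and DNMT3b siRNA. Over interior sites the groups did not overlap in 8 of the 36 comparisons, and none passed the exact permutation tests. The interior mean was higher in DNMT3a than in negative siRNA for 10 of 12 trinucleotides. It was higher in DNMT3b than in negative siRNA for 4 and in DNMT3a than in DNMT3b siRNA for 11. The second DNMT3a siRNA library was the highest of 9 there for 6 trinucleotides and the first for 4, while the third was the lowest for 3.

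The differences between contexts were also compared between siRNA groups, for CHG minus CHH, CA minus CT, CC minus CT and ends minus interior. The groups did not overlap in 4 of these 12 comparisons, which is 33.3% of them, each with p = 0.1, the smallest the exact permutation test allows (adjusted p = 0.3 over the 12). CHG minus CHH was 0.152, 0.151 and 0.157 percentage points in negative siRNA, 0.0620, 0.125 and 0.131 in DNMT3a siRNA and 0.164, 0.149 and 0.135 in DNMT3b siRNA. All 3 DNMT3a siRNA libraries lay below the other 6. CA minus CT was -0.0581, 0.0231 and -0.00037 in negative siRNA and -0.0586, -0.0823 and -0.0843 in DNMT3b siRNA, and CC minus CT was lower in DNMT3a than in negative siRNA by 0.0469. Over interior sites the groups overlapped in all 9 comparisons of CHG minus CHH, CA minus CT and CC minus CT.

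Single sites were tested with edgeR's quasi-likelihood test, applied to the reads with and without C and fitted over 2505 cytosines of all types. No non-CpG site passed an adjusted p of 0.05 in any of the 3 comparisons (percent called 0 of all cytosines), and the smallest adjusted p was 0.549, 1 and 0.527 for DNMT3a against negative, DNMT3b against negative and DNMT3a against DNMT3b siRNA. At an unadjusted p under 0.05 edgeR had 154 sites, where 7.11% of all cytosines did so in DNMT3a against negative siRNA. It had 64 sites, against a background of 2.95%, in DNMT3b against negative siRNA, and 160 sites, against 7.15%, in DNMT3a against DNMT3b siRNA. DESeq2 had 123, 33 and 113 in the same order, against 5.95%, 1.68% and 5.43% of all cytosines, and limma 168, 106 and 169, against 7.7%, 4.71% and 7.43%. The groups did not overlap at 244 sites in the first comparison (11.6% of all cytosines), with 136 higher, beside 5.99%, and 108 lower, beside 5.63%. They did not overlap at 218 in the second (11.3%) and 238 in the third (11.2%). The first and second comparisons share the negative siRNA libraries. The median log2 odds ratio over non-CpG sites was 0.043, 0.0060 and 0.036, beside 0.015, -0.026 and 0.049 over all cytosines.

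The sites with the smallest p in DNMT3a against negative siRNA, none of which passed, were in troponin genes. The CTT at offset 50 of Tnnt2_1 had 0.134%, 0.0560% and 0.0816% in negative siRNA, 0.471%, 0.377% and 0.30% in DNMT3a siRNA and 0.186%, 0.120% and 0.105% in DNMT3b siRNA. All 3 DNMT3a siRNA libraries were above the rest, with a log2 odds ratio of 2.07 ± 0.42 against negative siRNA (SE; edgeR adjusted p = 0.549). The CAT at offset 255 of Tnnt2_1 had 0.114%, 0.0589% and 0.0610% in negative siRNA, 0.482%, 0.367% and 0.153% in DNMT3a siRNA and 0.0771%, 0.0827% and 0.0925% in DNMT3b siRNA. It too was higher without overlap, with the third DNMT3a siRNA library nearest to the others. The CTC at offset 236 of Tnni3_2 went the other way, with 1.26%, 0.899% and 1.30% in negative siRNA and 0.416%, 0.403% and 0.469% in DNMT3a siRNA, a log2 odds ratio of -1.42 ± 0.33 (SE; edgeR adjusted p = 0.549).

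In DNMT3b against negative siRNA, the smallest p belonged to the CTC at offset 328 of NPPA_1, with 0.486%, 0.297% and 0.386% in negative siRNA and 0.154%, 0.147% and 0.138% in DNMT3b siRNA. Its log2 odds ratio was -1.39 ± 0.32 (SE; edgeR adjusted p = 1). The next were the CTC at offset 347 of Myh7b_2 with a log2 odds ratio of -1.60 and the CAG at offset 207 of NPPB_2 with 1.48, also with adjusted p = 1. NPPB_2 is a region of the brain natriuretic peptide gene. In DNMT3a against DNMT3b siRNA they were the CTG at offset 45 of Tnnt2_1 (1.81), offset 255 of Tnnt2_1 (1.87) and the CCT at offset 18 of Myh6_1 (-3.37), each with edgeR adjusted p = 0.527. The Myh6_1 site lies 12 bases from an end and was covered by 51 to 91 reads. It was read as C in 0%, 1.18% and 0% of DNMT3a siRNA reads and in 7.23%, 6.59% and 5.17% of DNMT3b siRNA reads.

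Regions differed mainly through their ends. Tnnc1_2 had the highest mean non-CpG level, 3.19% ± 0.28, followed by Mef2d_1 with 1.55% ± 0.15 and Tnnt2_2 with 1.23% ± 0.21. The lowest were Camta1_2 with 0.157% ± 0.052, Myh7b_2 with 0.163% ± 0.019 and Mef2d_2 with 0.168% ± 0.011 (SD, n = 9). Depth was low in Camta1_2, with a median of 109 reads at its interior sites in the first negative siRNA library. Its interior median was 0% in the first and second libraries of negative siRNA and of DNMT3a siRNA. Camta1 encodes a calmodulin-binding transcription activator. Neither Myh7b_2 nor Mef2d_2 had a member within 25 bases of an end. Interior medians spanned only 0.121% in Camta1_2 to 0.344% in Mef2c_1, and the interior mean of Tnnc1_2 was 0.170%, near that of the lowest regions.

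Inside the regions, Cdkn1C_1 had the highest interior mean, 0.514% ± 0.043. Cdkn1c encodes an imprinted inhibitor of cyclin-dependent kinases. Of the 15 interior sites at 1% or more in all 9 libraries, picked after their values were seen, 6 were in this region. In the run printed above, the CAG at offset 329 stood at 4.71%, 4.85% and 4.15% in negative siRNA, 4.32%, 4.34% and 4.18% in DNMT3a siRNA and 3.75%, 4.00% and 4.51% in DNMT3b siRNA. The CCA and CAA just after it, at offsets 332 and 333, averaged 3.49% ± 0.62 and 4.17% ± 0.79. The first of the run follows a CG pair directly, and coverage there was 1276 to 3338 reads. The groups overlapped at offsets 329 and 332. At offset 333 the libraries stood at 4.92%, 5.33% and 4.54% in negative siRNA, 4.28%, 3.87% and 3.53% in DNMT3a siRNA and 3.14%, 3.17% and 4.78% in DNMT3b siRNA, and DNMT3a siRNA was below negative siRNA without overlap. The interior mean of Cdkn1C_1 was 0.518%, 0.550% and 0.586% in negative siRNA, 0.512%, 0.507% and 0.429% in DNMT3a siRNA and 0.530%, 0.503% and 0.495% in DNMT3b siRNA. There too DNMT3a siRNA lay below negative siRNA without overlap, by a margin between the nearest libraries smaller than the spread within either group. Of the 26 regions, 6 had interior means lower in DNMT3a than in negative siRNA without overlap, and 1 had higher ones. The 3 neighbours lay 89 to 93 bases from the nearer end.

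The other interior sites of this kind included the CAT at offset 321 of Tnnt2_2, the highest of the 15 with 4.86% ± 1.1. It ranged from 3.37% to 6.55% over the libraries and lies 28 bases from an end. The CTC at offset 353 of Mef2c_1 averaged 2.11%, the CTG at offset 328 of Tnnc1_1 averaged 2.04% and the CCG at offset 32 of Camta1_1 averaged 1.73% ± 0.20. Of the 15 sites, 8 lie within 44 bases of an end.

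For tests by region, reads were summed over the CHG or the CHH sites of a region, and edgeR was run on 78 such sums, of which 52 are non-CpG and the others CpG. None of the 52 passed in any comparison (percent called 0), and at an unadjusted p under 0.05 edgeR had 4, 0 and 3 of them, beside 10.3%, 3.85% and 7.69% of all 78. DNMT3a and negative siRNA did not overlap in 10 of 52, against 20.5% of all 78. They were 3 higher sums, against 5.13%, and 7 lower, against 15.4%. DNMT3b and negative siRNA did not overlap in 2 and DNMT3a and DNMT3b siRNA in 4, each against 10.3%, and the 4 were lower, against 6.41%.

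The 3 higher sums were CHG and CHH of Camta2_1 and CHH of Camta2_2, regions of another calmodulin-binding transcription activator gene. The 7 lower ones included CHH of NPPA_1, NPPB_1 and NPPB_2 and CHG of Tnnt2_2. The beta myosin heavy chain gene held the other 3. Summed CHG levels in Myh7_1 were 0.232%, 0.196% and 0.218% in negative siRNA, 0.159%, 0.163% and 0.166% in DNMT3a siRNA and 0.202%, 0.206% and 0.190% in DNMT3b siRNA. DNMT3a siRNA lay below all 6 other libraries, with a log2 odds ratio of -0.40 ± 0.09 against negative siRNA (SE; edgeR adjusted p = 0.211). DESeq2 on the same sums gave an adjusted p of 0.000867.

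Summed CHH levels in Myh7_1 were 0.279%, 0.259% and 0.247% in negative siRNA, 0.214%, 0.212% and 0.212% in DNMT3a siRNA and 0.233%, 0.262% and 0.247% in DNMT3b siRNA. The log2 odds ratio of DNMT3a against negative siRNA was -0.30 ± 0.09 (SE; edgeR adjusted p = 0.232), and DESeq2 gave an adjusted p of 0.00195. The same 3 libraries were thus low in both classes, by a few hundredths of a percentage point. Against DNMT3b siRNA the log2 odds ratios were -0.29 ± 0.09 for CHG and -0.22 ± 0.09 for CHH (SE; edgeR adjusted p = 0.528 for both). All these values are of summed reads. With each interior site weighted equally, DNMT3a siRNA had means of 0.257%, 0.268% and 0.229%. They overlapped DNMT3b siRNA (0.273%, 0.309% and 0.252%) but not negative siRNA (0.366%, 0.286% and 0.273%). By medians over sites, DNMT3a siRNA (0.174%, 0.181% and 0.155%) also overlapped negative siRNA (0.181%, 0.203% and 0.171%).

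In Myh7_2, CHG levels were 0.195%, 0.192% and 0.194% in negative siRNA, 0.158%, 0.164% and 0.150% in DNMT3a siRNA and 0.189%, 0.214% and 0.155% in DNMT3b siRNA (log2 odds ratio of DNMT3a against negative siRNA -0.30 ± 0.13, SE; edgeR adjusted p = 0.478). CHH levels there overlapped. The CpG sites of Myh7_1 stood at 57.2%, 59.7% and 61.9% in negative siRNA, 50.5%, 57.7% and 55.7% in DNMT3a siRNA and 59.0%, 56.9% and 57.4% in DNMT3b siRNA. The CpG levels of those groups overlapped, and whether CpG and non-CpG levels are linked was not tested.

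**Figure D4:**
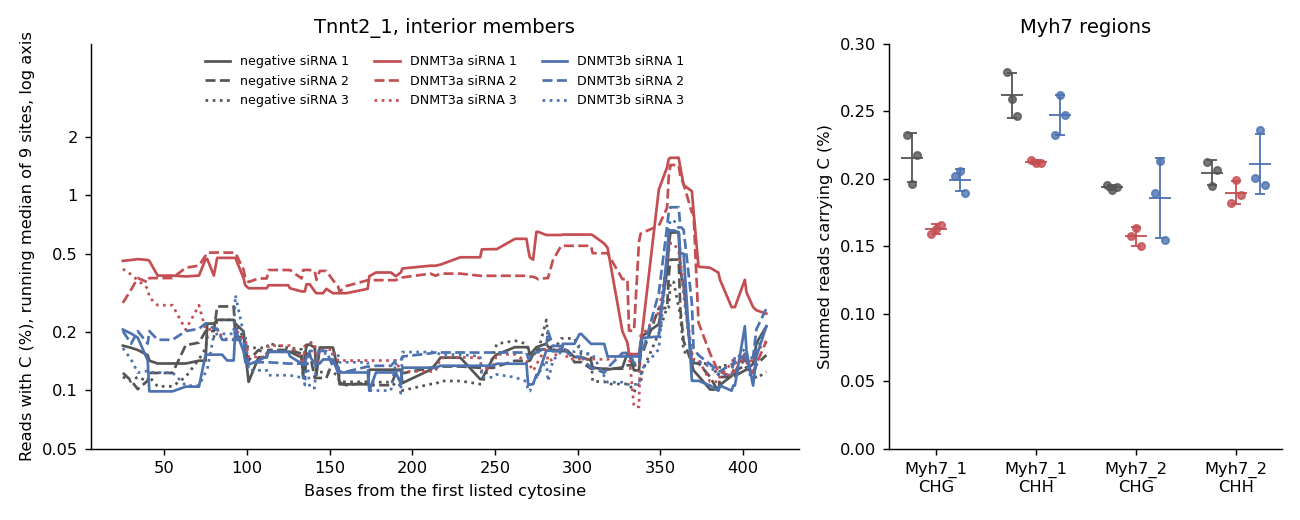
Left, running median over 9 neighbouring interior non-CpG sites along Tnnt2_1 for each library, as percent of reads carrying C on a log axis, against bases from the first listed cytosine; right, summed CHG and CHH levels of the Myh7 regions by library, with mean ± SD of 3, in grey for negative, red for DNMT3a and blue for DNMT3b siRNA. Along most of Tnnt2_1 the first and second DNMT3a siRNA libraries run above the other 7. In the summed levels of Myh7_1 the DNMT3a siRNA libraries lie below the other 6.

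Tnnt2_1 differed by library rather than by group. Summed CHH levels were 0.213%, 0.209% and 0.20% in negative siRNA, 0.502%, 0.444% and 0.196% in DNMT3a siRNA and 0.201%, 0.215% and 0.204% in DNMT3b siRNA. The first and second DNMT3a siRNA libraries were more than 2 times as high as any other, and the third was the lowest of the 9. The log2 odds ratio against negative siRNA was 0.78 ± 0.31 (SE; edgeR adjusted p = 0.478). Without the third DNMT3a siRNA library it was 1.19, and the CHG and CHH sums of Tnnt2_1 then passed against both other groups (smallest edgeR adjusted p = 0.000179 against negative and 0.000175 against DNMT3b siRNA). Without that library 27 single sites also passed against negative siRNA, 26 of them in Tnnt2_1 and 1 in Cdkn1A_1, and 23 against DNMT3b siRNA, 22 of them in Tnnt2_1 and 1 in Cdkn1A_1.

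The higher level in those 2 libraries ran along the region. They were picked because their sums over this region were high, so the counts and medians here only describe where the higher level lay. At 62 of the 104 interior sites both exceeded the other 7 libraries, and their medians over interior sites were 0.424% and 0.403%, beside 0.140% to 0.158% in the others. The 6 CpG sites of Tnnt2_1 had 47.0% and 58.6% in the same 2 libraries, within the 47.0% to 59.2% spanned by all 9. Of the 154 sites with an unadjusted edgeR p under 0.05 in DNMT3a against negative siRNA, 47 were in Tnnt2_1 and 26 in Camta2_1. The regions had 107 and 115 tested sites, and 7.11% of all cytosines were under that p. In Tnnt2_1, 44 of the 47 were higher and 3 lower, and in Camta2_1 all 26 were higher. Offsets 358 to 368 of Tnnt2_1 were picked as its longest run of neighbouring interior sites with a mean level of 0.5% or more. The highest of the run, the CCC at offset 359, had 2.10%, 1.52% and 0.471% in negative siRNA. It had 2.78%, 3.11% and 1.61% in DNMT3a siRNA and 2.37%, 2.02% and 1.60% in DNMT3b siRNA. The lowest, the CAT at offset 368, had 0.345%, 0.179% and 0.154% in negative siRNA, 1.13%, 1.14% and 0.345% in DNMT3a siRNA and 0.503%, 0.666% and 0.308% in DNMT3b siRNA.

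Single libraries also stood apart in other regions. A library's interior mean was at least 1.5 times the median of the region's 9 libraries in 16 of 234 pairs of region and library, spread over 10 regions. Of these, 5 belonged to the first and 5 to the second DNMT3a siRNA library, 2 to the first negative siRNA library, 1 each to the third DNMT3a, the third negative, the first DNMT3b and the third DNMT3b siRNA library, and none to the second negative and second DNMT3b siRNA library. The first negative siRNA library stood apart in Camta1_2 on a median of only 109 reads. In all 16, picked by the mean over these same sites, the ratio exceeded 1 in CA, in CC and in CT sites. It was uneven in some. In Camta2_2 the first DNMT3a siRNA library had ratios of 1.09 in CA, 1.63 in CC and 1.97 in CT sites, and 0.899 in CHG sites. The largest ratio over all interior sites was in Cdkn1A_1, of another cyclin-dependent kinase inhibitor gene. There the first DNMT3a siRNA library had 1.16% and the others 0.187% to 0.588%.

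In 4 of the 16 the CpG level of the region was raised at least 1.5 times as well, all in regions with low CpG levels. Where CpG levels are high, a rise of the size seen at non-CpG sites could not reach that ratio. The median CpG level of the other libraries was 81.6% in Mef2c_1 and 60.2% in Cdkn1A_1 beside the first DNMT3a siRNA library. In Camta1_2, where CpG levels were low too, the first negative siRNA library had 0.156%, against 0.135% to 0.502%. In Camta1_1 the second DNMT3a siRNA library had 0.658% at non-CpG sites, against 0.164% to 0.226% elsewhere, and 0.605% over 43 CpG sites, against 0.177% to 0.298%. The raised level in that library was thus seen in CpG and non-CpG cytosines alike. In Camta2_1 the second DNMT3a siRNA library had 0.454% and the first DNMT3b siRNA library 0.362%, with CpG levels of 0.534% and 0.419%. In Mef2d_1 the third negative siRNA library had 0.613% against 0.180% to 0.304%, and its CpG level was 2.87% against 0.917% to 2.26%.

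**Figure D5:**
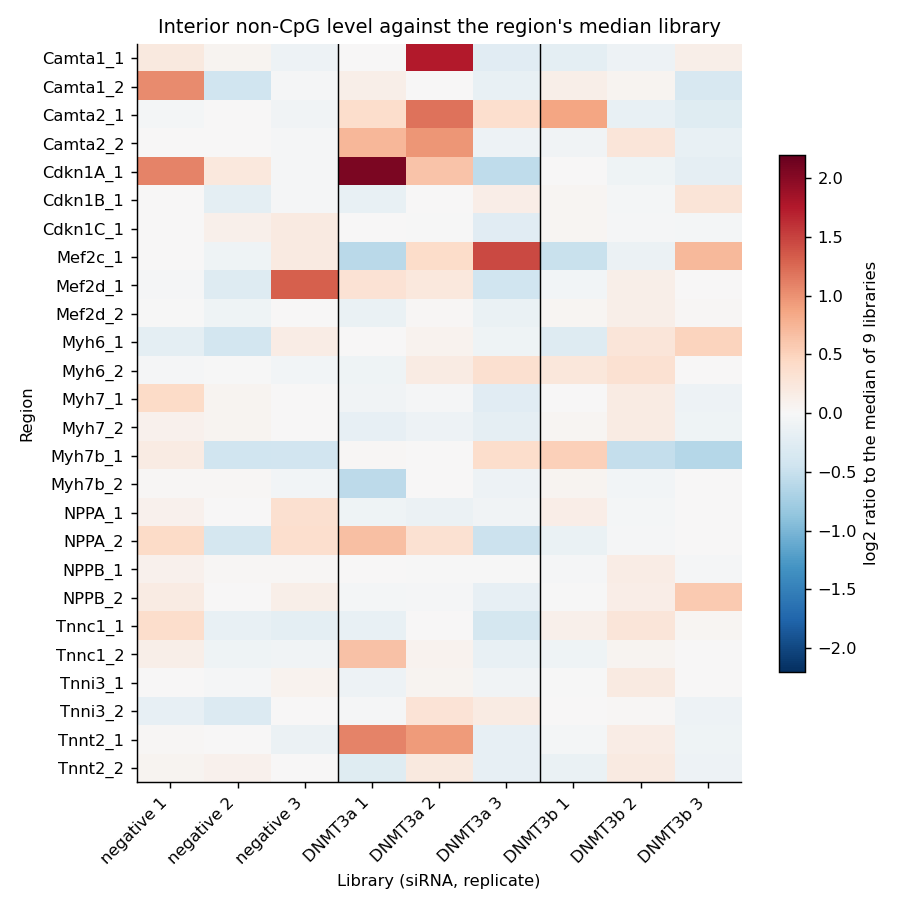
Interior non-CpG level of each region in each library, as the log2 ratio to the median of the region's 9 libraries, in colour, with libraries in columns and regions down the side. The first and second DNMT3a siRNA libraries hold 10 of the 16 cells at 1.5 times the median or more, in Tnnt2_1, Cdkn1A_1, Camta1_1, Camta2_1, Camta2_2 and others.

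The overlap of Mef2d_1 and Mef2d_2 allowed such a library to be compared on the same cytosines. At the 12 non-CpG cytosines that met the coverage minimum in both regions, the third negative siRNA library averaged 0.626% in Mef2d_1 and 0.161% in Mef2d_2. The other 8 libraries had 0.164% to 0.271% in Mef2d_1 and 0.136% to 0.272% in Mef2d_2. That library, picked because it was high in Mef2d_1, was therefore above the others in region 1 and within their range in region 2. With the 9 libraries pooled, that one among them, 11 of the 12 cytosines were higher in Mef2d_1, with medians of 0.227% and 0.0945%. By library, the mean over the 12 was lower in Mef2d_1 in the first negative siRNA library, with 0.213% against 0.248%. The same held for the third DNMT3a siRNA library (0.170% against 0.188%) and the second DNMT3b siRNA library (0.164% against 0.272%). In the other libraries it was higher in Mef2d_1.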

How the data were processed

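Targeted bisulfite sequencing was analysed in 9 libraries, with 3 in each siRNA group. The submitters' processing notes name FastQC, Bismark, Bowtie2 and mm10 as the build, with versions and settings not given in the sources used here. Per the file headers, each deposited value pair is a read count at a cytosine (its coverage) and the percent with C among those reads. Coverage times percent gave whole reads for 23884 of 23884 values within 0.01 reads, and these were used as methylated counts.

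Non-CpG cytosines with 30 or more reads in all 9 libraries were kept. An end site lies within 25 bases of the first or last listed offset of its region, and all others are interior. A mean level weights sites equally. The files give no genome coordinates, so those printed come from matching the trinucleotide pattern (8 or more cytosines, no mismatch) to RefSeq promoter windows of GRCm38.p6.

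Sites (2505 cytosines of all types) and region sums (78) were tested by edgeR's quasi-likelihood test (edgeR 4.0.16, R 4.3.3), applied to both counts of a cytosine, methylated and unmethylated. The model held a term per library and was fitted to all 9 libraries at once. P-values were adjusted within a comparison (Benjamini-Hochberg), and features under an adjusted p of 0.05 were called. Means were compared by exact permutation tests. The test was checked on simulated data. Alternatives were coverage minimums of 10 and 100, DESeq2 1.42.0, limma 3.58.1, other averages, a replicate block and leaving out each library. Analyses of interior sites only for the siRNA comparisons, and without Tnnc1_2 or Tnnt2_1, were added after seeing the data.

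All trinucleotides are named, with the 3 highest and 3 lowest regions, the 10 highest sites and, as none was called, the 3 sites of smallest p in each comparison. Other sites and regions that are named were chosen after their values were seen. The members, lists and rules were chosen with earlier results of these data known.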

Additional observations from a re-analysis of the deposited data

How the results depend on the processing

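The higher level at ends, and CC and CA below CT, kept their direction in the mean over libraries and passed under every alternative run. Their tests cover the spread between libraries and not between sites. For CA, 2 of 9 libraries went the other way over interior sites, both of negative siRNA. CHG minus CHH did not: it was 0.00874 over interior sites, -0.00869 with a coverage minimum of 100, -0.00385 with reads pooled, -0.00169 as a median and -0.0113 without sites of 2% or more. Leaving out a library gave 0.133 to 0.146.

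DNMT3b minus negative siRNA in mean level was 0.00043 as a median over sites, and -0.0215 to 0.00877 when a library was left out (0.00877 without negative 1, 0.00172 without negative 3, 0.00244 without DNMT3b 1). DNMT3a minus negative siRNA ranged from 0.0163 to 0.0641 and DNMT3a minus DNMT3b siRNA from 0.0199 to 0.0678. None passed.

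Calls of sites and regions were 0 in all alternatives but these. Without the third DNMT3a siRNA library, 27 sites and 2 region sums were called against negative siRNA and 23 sites and 2 region sums against DNMT3b siRNA. Leaving out any other library gave 0 in each. DESeq2 called 2 region sums, CHG and CHH of Myh7_1, in DNMT3a against negative siRNA. The cause of these differences was not tested.

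Correlations of deviations between libraries of different groups were -0.00521 to 0.112 for equal replicate numbers and -0.0891 to 0.0547 for others. Equal numbers 1, 2 and 3 had 0.0906, 0.0471 and 0.0453 in DNMT3a against negative siRNA. They had 0.0657, -0.00521 and 0.00045 in DNMT3b against negative siRNA, and 0.0387, 0.0145 and 0.112 in DNMT3a against DNMT3b siRNA. Whether replicate numbers stand for a shared culture or batch was not tested. With a replicate block the mean differences stayed at 0.0355, -0.00366 and 0.0392 and the calls at 0.

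Depth limits the end sites most, at a median of 330 reads. At the median of 8253 reads, a level of 0.1% is about 8 reads with C.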
